A study of Mus musculus with 5 samples.

Results

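The genes described here encode the smooth muscle actin contractile apparatus, namely Acta2, Tagln, Cnn1, Cald1, Myl9, Tpm1 and Tpm2, together with the intermediate filament genes Vim and Nes. They were chosen by name, and each was represented by the probe set annotated with that symbol alone, of which every gene had 1. All 9 were measured, among 19938 genes tested.

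Expression was read from 5 primary mouse pancreatic cultures, each on 1 Affymetrix whole-transcript array that gives a log2 signal per probe set. The 3 cultures of pancreatic ductal adenocarcinoma (PDAC) cells had the genotype Pdx-1CreAPCL/+p53L/L, that is, with L read as a floxed allele, a floxed and an unaltered Apc allele and both p53 alleles floxed. The 2 normal pancreatic ductal cell cultures carried the floxed p53 alleles alone, so a p53 lesion was shared by both groups wherever Cre had acted. The Pdx-1Cre transgene deletes floxed DNA in descendants of pancreatic progenitors, and other cell types of a primary culture would not carry the deletions. The title of normal ductal replicate 1 names Pdx-1Cre, that of replicate 2 names Pdx-1 without Cre and leaves out the word ductal, the title of PDAC replicate 3 alone adds that it was a mutant cell, and no age or sex was given in the sources used here. Cells had been passaged fewer than 6 times, in RPMI with 10% serum. The labels call them biological replicates without naming animals, so the p-values measure the spread between these 5 arrays, and that number limits the precision.

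Smooth muscle actin, encoded by Acta2, forms contractile stress fibres in smooth muscle cells, in pericytes and in activated fibroblasts such as the pancreatic stellate cell. Myosin II pulls on these fibres when its regulatory light chain is phosphorylated, and tropomyosin, caldesmon and calponin lie along the actin filament and govern that step. Many of these genes are switched on by serum response factor (SRF), which binds a DNA element named the CArG box and works with cofactors that sense free actin or, in smooth muscle, with myocardin. Vimentin and nestin form a different filament system, used by mesenchymal cells and by progenitor cells, and carcinoma cells often gain vimentin when they lose epithelial character.

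Promoter sequences from RefSeq (GRCm38.p6, the same assembly as mm10) were found for 8 of the 9 genes, Tagln being the gene without an entry. The 250 bases before the listed start were searched on both strands for the CArG box, for CArG-like boxes in which 1 of the central bases is G or C, for TATAAA and for CATTCC, the core of the element bound by TEAD factors. Acta2 held 2 CArG-like boxes, beginning 84 and 34 bases before the listed start, and a CATTCC match on the complementary strand 146 bases before it. Myl9 held a CArG box at 161 bases and a CArG-like box at 99 bases before its start. Cnn1, Tpm2 and Nes held no match to any of the motifs searched. TATAAA stood 32 bases before the start of Vim and 186 bases before the second start of Cald1, and a CATTCC match lay in the windows of Tpm1 and of the upstream start of Cald1. None of these matches overlapped another. Of 19177 such windows of tested genes, 1.26% held a CArG box, 6.87% a CArG-like box, 10.5% TATAAA and 11.4% CATTCC. The windows of Acta2, Myl9 and Cnn1 are shown because each of these genes had its highest signal in PDAC replicate 1 while their windows differ in these elements; capitals mark CArG and CArG-like boxes, sequences run from 5′ to 3′ on the strand of the gene, and the listed start of each of the 3 lies inside the annotated span of its gene.
Acta2, chr19:34255374-34255623, minus strand: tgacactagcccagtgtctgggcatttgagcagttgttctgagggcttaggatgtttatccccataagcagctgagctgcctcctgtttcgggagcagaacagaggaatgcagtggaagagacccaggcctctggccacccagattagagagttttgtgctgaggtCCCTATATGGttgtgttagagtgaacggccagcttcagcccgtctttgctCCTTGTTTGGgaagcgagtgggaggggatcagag
Myl9, chr2:156775214-156775463, plus strand: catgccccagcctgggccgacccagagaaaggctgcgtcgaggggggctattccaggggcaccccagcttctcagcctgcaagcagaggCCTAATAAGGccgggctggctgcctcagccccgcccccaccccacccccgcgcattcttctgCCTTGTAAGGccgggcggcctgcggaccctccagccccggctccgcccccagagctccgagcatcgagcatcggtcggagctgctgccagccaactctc
Cnn1, chr9:22099003-22099252, plus strand: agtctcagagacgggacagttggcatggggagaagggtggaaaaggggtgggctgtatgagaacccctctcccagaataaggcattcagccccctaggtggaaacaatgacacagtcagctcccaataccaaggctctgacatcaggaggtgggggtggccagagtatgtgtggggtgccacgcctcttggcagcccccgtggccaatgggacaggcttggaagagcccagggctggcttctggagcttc

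The array medians lay between 5.90 and 6.02, and pairs of arrays correlated between 0.959 and 0.982 across all probe sets. Equal values on at least 2 arrays occurred for 47.8% of genes tested and for 1 of the 9 genes, Tpm1. Apc stood at 9.001, 9.06 and 8.58 in PDAC and at 9.23 and 9.02 in normal ductal cultures, a probe set signal that pools all exons and so does not test the loss of some of them. The highest value deposited for any probe set was 13.9, and the highest of Acta2 and Vim were 13.41 and 13.35.

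The comparison of PDAC with normal ductal cultures asked whether tumour cells with a floxed Apc allele differ in contractile and filament genes from duct cells without it. No gene of the 9 rose or fell past the limma test with Benjamini-Hochberg adjustment over all genes (adjusted p from 0.356 for Vim to 0.950 for Tpm1), where 0.0552% of all genes tested were called, with a higher PDAC level in 0.00502% and a lower one in 0.0502%. At an unadjusted p under 0.05 there was 1 gene, Vim, against 13.4% of all genes. The differences ran both ways, 4 being positive and 5 negative, with a median log2 difference of -0.02 beside 0.01 over all genes. For 2 of the 9 genes the arrays of both groups lay apart, Vim with the higher signal in PDAC (as for 13.6% of all genes) and Cald1 with the lower (12.8%), and such a separation in either direction occurred for 26.4% of all genes. The genes did not all share a pattern. Acta2, Cnn1, Myl9 and Vim had a higher mean in PDAC, and Tagln, Cald1, Tpm1, Tpm2 and Nes a lower one. Wide variation between the PDAC cultures was seen for Tagln, Cnn1, Myl9, Tpm2 and Nes.

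**Figure D1:**
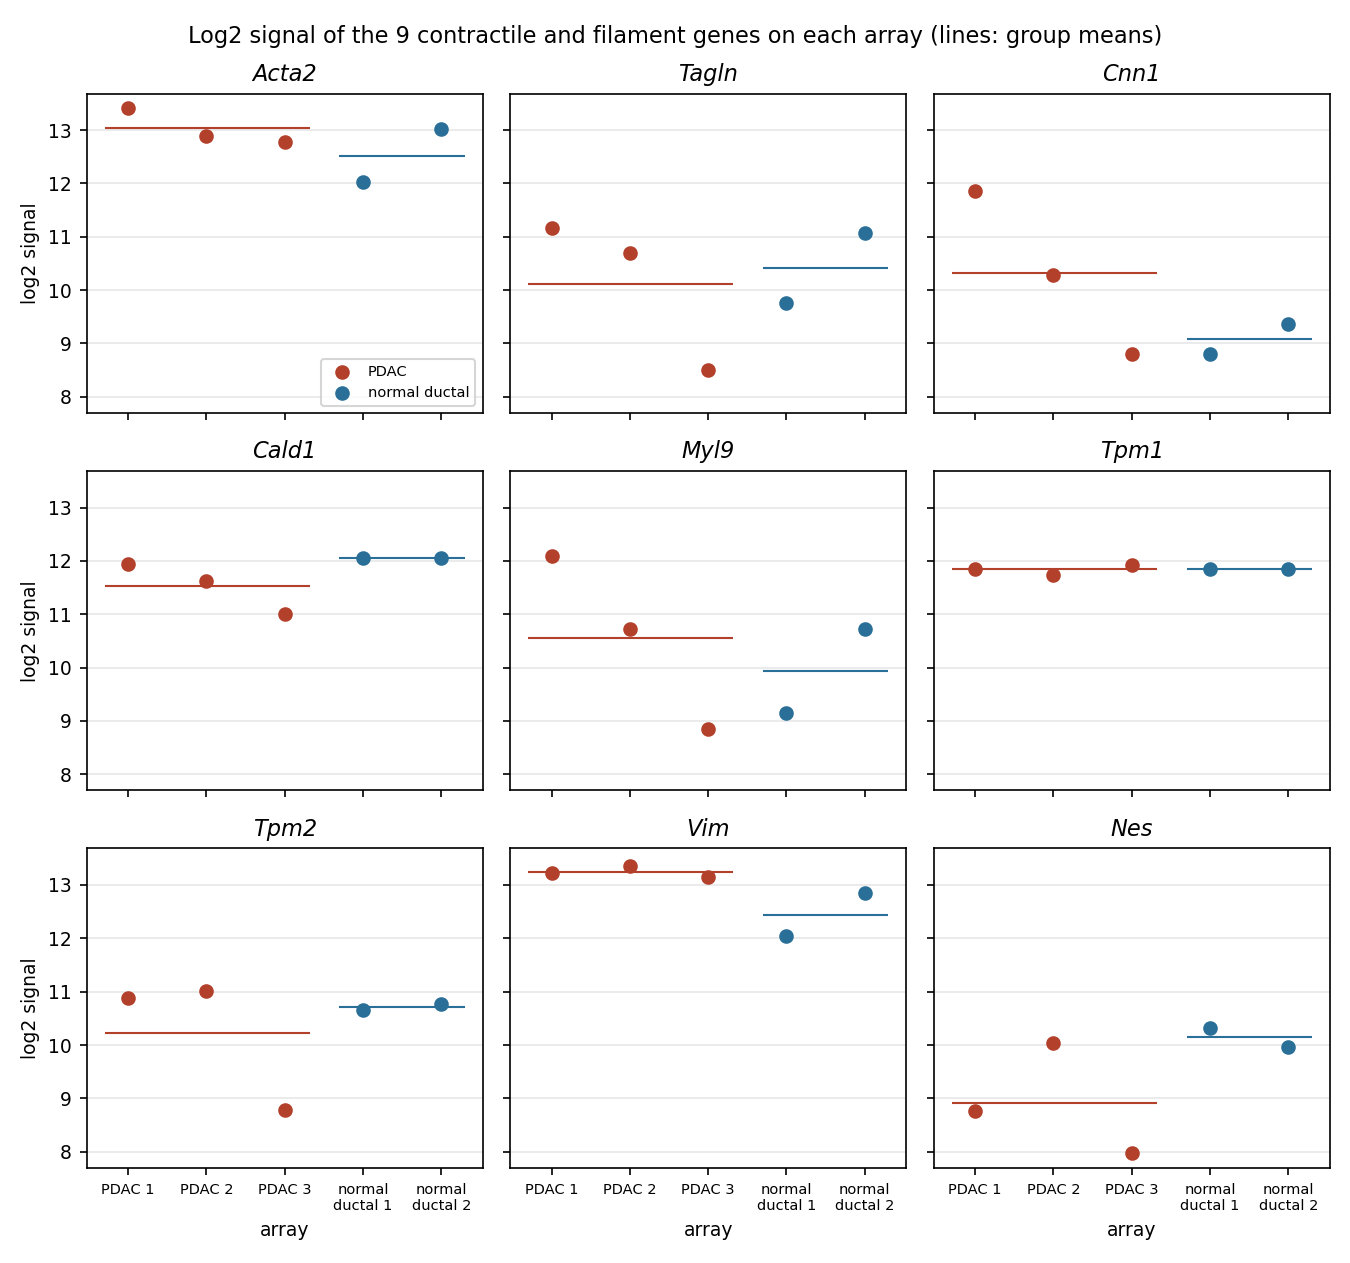
Log2 signal (y axis) of Acta2, Tagln, Cnn1, Cald1, Myl9, Tpm1, Tpm2, Vim and Nes on the 3 PDAC arrays and the 2 normal ductal arrays (x axis), with lines at the group means. Vim sits between 13.15 and 13.35 in PDAC, above both normal ductal arrays at 12.04 and 12.84, while PDAC replicate 3 is far below the other PDAC cultures for Tagln, Myl9 and Tpm2.

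Vim, the gene of the mesenchymal filament protein vimentin on chromosome 2 (13574311 to 13582826), had log2 signals of 13.22, 13.35 and 13.15 in PDAC cultures, against 12.04 and 12.84 in normal ductal cultures. Every PDAC array lay above both normal ductal arrays, and the PDAC arrays were within 0.20 of each other. The means were 13.24 ± 0.10 (SD, n = 3) in PDAC and 12.44 ± 0.57 (SD, n = 2) in normal ductal cultures, a log2 difference of 0.80 (SE 0.27, 95% confidence interval 0.04 to 1.56, 1.74-fold), which did not pass limma's test over all genes. The size of the difference depended on which normal ductal culture was used. It was 1.20 against replicate 1 alone (limma adjusted p = 0.0512) and 0.40 against replicate 2 alone (adjusted p = 0.222), each fit assuming that a lone array varies like the PDAC arrays.

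Acta2, encoding smooth muscle actin itself (chromosome 19, 34240336 to 34255585), stood at 13.41, 12.89 and 12.78 in PDAC cultures and at 12.03 and 13.01 in normal ductal cultures. The groups overlapped, since normal ductal replicate 2 lay above PDAC replicates 2 and 3. PDAC averaged 13.03 ± 0.34 (SD, n = 3) and normal ductal cultures 12.52 ± 0.70 (SD, n = 2), a log2 difference of 0.51 (SE 0.39, confidence interval -0.58 to 1.60). Against normal ductal replicate 1 alone the difference was 1.002, and against replicate 2 alone it was 0.018, with limma adjusted p of 0.323 and 1.0. Of the 36 pairs that the 9 genes form, Acta2 and Vim had the smallest root mean square difference, 0.27 log2 units over the 5 arrays after each profile was centred on its mean. This measure is not scaled for range, so it favours genes that vary little and does not rank likeness of shape.

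**Figure D2:**
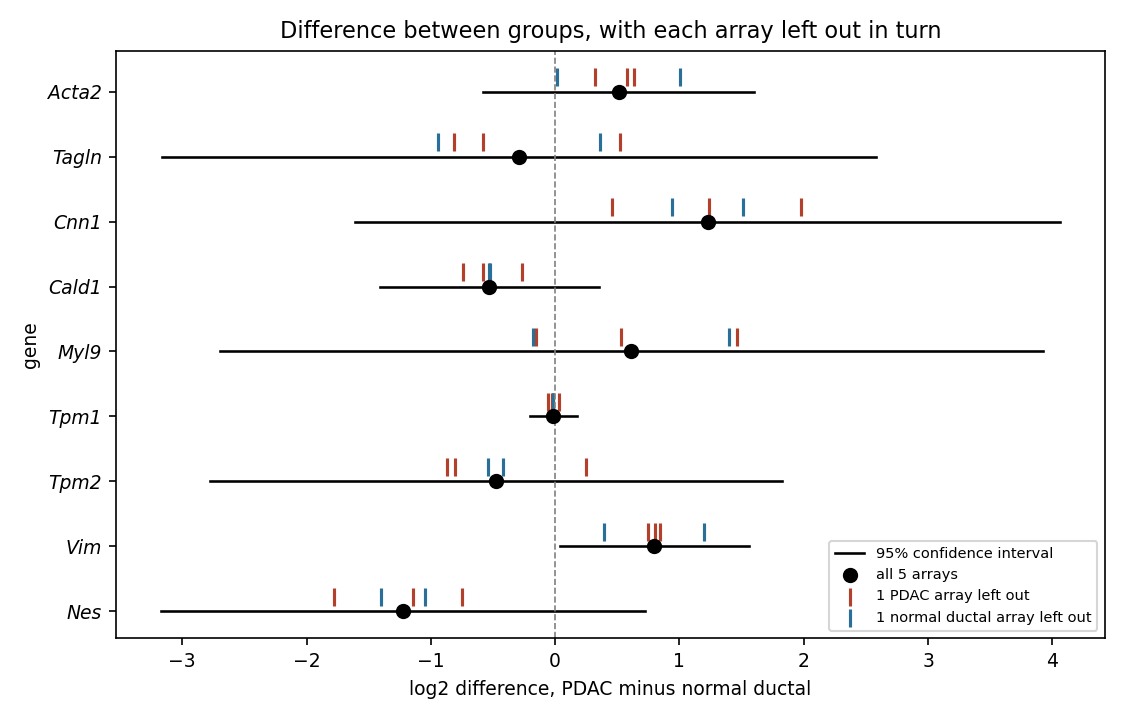
Log2 difference, PDAC minus normal ductal (x axis), for each of the 9 genes (y axis), with the 95% confidence interval of limma as a line and ticks for the value with 1 array left out. The interval of Vim alone lies above 0, from 0.04 to 1.56, and the ticks of Tagln, Myl9, Tpm1 and Tpm2 fall on both sides of 0.

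Tagln, Cnn1, Myl9 and Tpm2 encode proteins that bind actin or drive myosin in stress fibres, and they varied widely between PDAC cultures. Each had a range of more than 2 log2 units over the PDAC arrays, as did Nes, so that 5 of the 9 genes passed this mark, against 2.30% of all genes tested. The spread was not particular to these genes. The mark was also passed by 5 of 10 fibroblast and stellate cell markers, 5 of 8 epithelial and 4 of 6 mesothelial markers. Of 10 smooth muscle and pericyte markers 2 passed it, and of 6 leukocyte markers 1. No endothelial, acinar, islet, neural or striated muscle marker did. The median range over the PDAC arrays was 2.07 for the 9 genes and 0.27 for all genes. PDAC replicate 1 lay more than 1 log2 unit above PDAC replicate 3 for 4 of the 9 genes, a difference shown by 2.58% of all genes, and PDAC replicate 2 lay more than 1 above it for 5 of the 9, against 2.75%. These counts set single arrays against each other, so they have no test.

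Myl9, the regulatory light chain of smooth muscle and non-muscle myosin II (chromosome 2, 156775408 to 156781657), showed the widest range among the PDAC cultures, 3.24. Its log2 signal was 12.09, 10.72 and 8.85 in PDAC and 9.15 and 10.73 in normal ductal cultures. PDAC replicate 3 was the lowest and PDAC replicate 1 the highest of the 5 arrays, so the groups overlapped fully. The log2 difference of 0.61 (SE 1.18, confidence interval -2.70 to 3.92) turned to -0.15 without PDAC replicate 1 and to -0.18 without normal ductal replicate 1.

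Cnn1, encoding the calponin of smooth muscle (chromosome 9, 22099221 to 22109221), stood at 11.85, 10.29 and 8.81 in PDAC cultures, against 8.81 and 9.37 in normal ductal cultures. PDAC replicates 1 and 2 lay above both normal ductal arrays and PDAC replicate 3 lay level with the lower of them. With means of 10.32 ± 1.52 (SD, n = 3) in PDAC and 9.09 ± 0.40 (SD, n = 2) in normal ductal cultures, Cnn1 had the largest positive difference of the 9 genes, 1.23 (SE 1.01, 2.34-fold). The difference was 0.46 without PDAC replicate 1 and 1.98 without PDAC replicate 3.

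Tagln, which encodes the actin-bundling protein transgelin (chromosome 9, 45929628 to 45936058), had 11.17, 10.69 and 8.50 in PDAC and 9.76 and 11.06 in normal ductal cultures. The lowest and the highest of the 5 arrays were both PDAC cultures. The log2 difference of -0.29 (SE 1.02) became 0.52 without PDAC replicate 3 and 0.36 without normal ductal replicate 2.

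Tpm2, encoding beta-tropomyosin (chromosome 4, 43513726 to 43523583), had 10.89, 11.02 and 8.79 in PDAC cultures, against 10.65 and 10.77 in normal ductal cultures. Here 4 arrays lay within 0.37 of each other and PDAC replicate 3 stood apart below them. The log2 difference was -0.48 (SE 0.82) with all arrays and 0.25 without PDAC replicate 3.

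**Figure D3:**
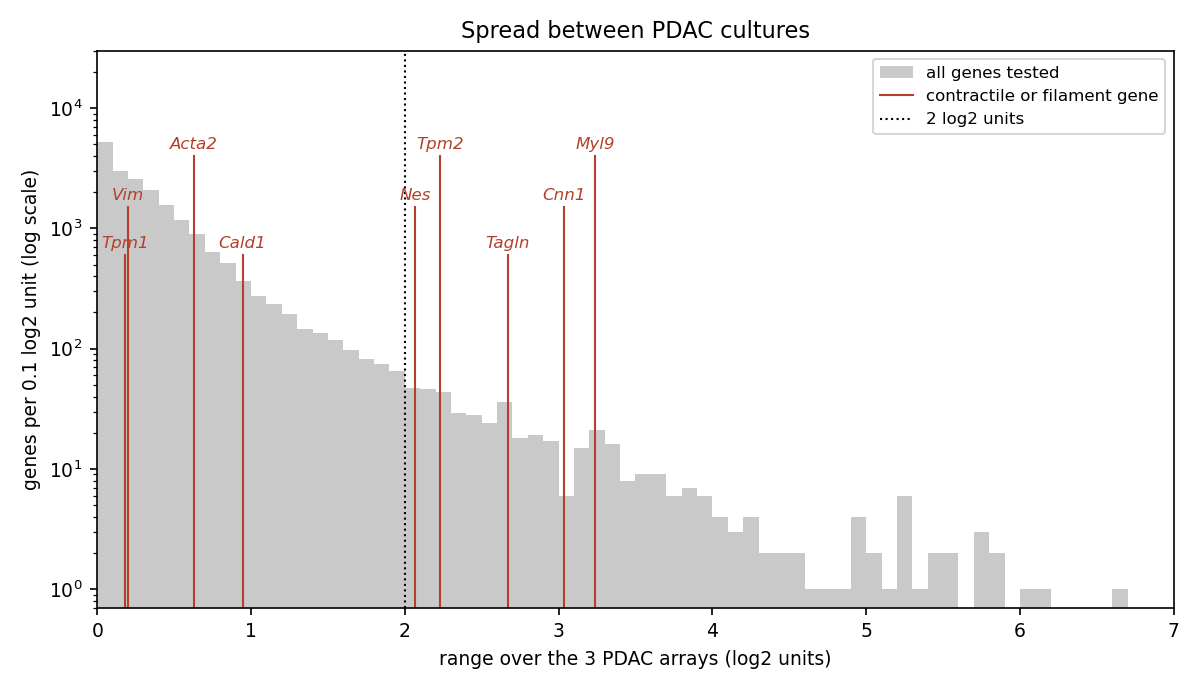
Number of genes (y axis, log scale) by the range of their log2 signal over the 3 PDAC arrays (x axis, in bins of 0.1), for all genes tested in grey, with the 9 contractile and filament genes as red lines whose heights carry no meaning. Nes, Tpm2, Tagln, Cnn1 and Myl9 lie to the right of the dotted line at 2, between 2.07 and 3.24, and Tpm1, Vim, Acta2 and Cald1 lie below 1.

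Cald1 and Tpm1 encode caldesmon and alpha-tropomyosin, which lie along actin filaments in muscle and in many other cells, and each probe set pools the muscle and non-muscle forms made by alternative splicing. Cald1 (chromosome 6, 34598495 to 34775469) had 11.95, 11.62 and 11.00 in PDAC and 12.05 and 12.05 in normal ductal cultures. All PDAC arrays lay below the normal ductal arrays, PDAC replicate 1 by 0.10. The log2 difference was -0.53 (SE 0.32, confidence interval -1.41 to 0.36), without a call, and -0.27 when PDAC replicate 3 was left out. Tpm1 (chromosome 9, 67022590 to 67049672) stood at 11.86, 11.74 and 11.92 in PDAC and at 11.86 on both normal ductal arrays, the same deposited value occurring on 3 arrays. Its difference of -0.02 had a confidence interval from -0.21 to 0.17, the narrowest of the 9, and was 0.078 with the arrays at a common median.

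Nes encodes nestin, a filament protein of neural and muscle progenitors that also marks a subset of exocrine progenitors and stellate cells in the pancreas (chromosome 3, 87971093 to 87980451). The log2 signal was 8.76, 10.04 and 7.97 in PDAC cultures, against 10.32 and 9.97 in normal ductal cultures. PDAC replicates 1 and 3 lay below both normal ductal arrays and PDAC replicate 2 lay between them. The means of 8.92 ± 1.04 (SD, n = 3) in PDAC and 10.15 ± 0.25 (SD, n = 2) in normal ductal cultures gave a log2 difference of -1.22 (SE 0.69, confidence interval -3.17 to 0.72). The sign was opposite to that of Vim, and limma's adjusted p was 0.550. Without PDAC replicate 2 it was -1.78 (limma adjusted p = 0.403), and without PDAC replicate 3 it was -0.75.

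Markers of other cell types differed between the arrays. In a bulk culture, fewer cells of a type and less RNA per cell cannot be told apart. Of 10 fibroblast and stellate cell markers, all 10 exceeded their level in normal ductal replicate 1 by over 1 log2 unit in replicate 2, against 2.93% of all genes tested (3.91% differed by that much in either direction), and the list means were 9.24, 9.11 and 8.88 in PDAC cultures, 6.93 in normal ductal replicate 1 and 9.88 in replicate 2. Among the 9 genes, 2 exceeded it likewise in replicate 2, Tagln by 1.31 and Myl9 by 1.58, while Acta2 was higher by 0.98 and Vim by 0.80. Tpm1, Cald1 and Tpm2 differed by at most 0.12 between these arrays, and Nes was 0.35 lower in replicate 2. Endothelial, acinar and islet marker means were at most 5.03, 5.72 and 5.37 in PDAC cultures, against 5.74, 5.40 and 6.64 in normal ductal replicate 1 and 7.22, 7.93 and 9.03 in replicate 2. Of 8 epithelial markers, 7 were lower on every PDAC array than on both normal ductal arrays, as were 12.8% of all genes. The exception was Krt19, at 6.47, 9.505 and 11.74 in PDAC and 11.46 and 11.37 in normal ductal cultures, with PDAC replicate 3 the highest. The part of these cells in the levels of the 9 genes was not tested.

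PDAC replicate 3, with the lowest signal of all 5 arrays for Tagln, Cald1, Myl9, Tpm2 and Nes (5 of 9, against 17.7% of all genes), also had the lowest mean of the 10 smooth muscle and pericyte markers, 5.86, where PDAC replicates 1 and 2 had 6.54 and 6.22 and the normal ductal arrays 6.46 and 7.03. Of these markers, Rgs5 (4.82), Cspg4 (5.88) and Mcam (7.70) were lowest of all 5 arrays in PDAC replicate 3, while the rest were not. The fibroblast marker mean of PDAC replicate 3, 8.88, was the lowest of the PDAC cultures. Of the 10 fibroblast markers Col1a2 (9.54), Pdgfrb (9.73) and Thy1 (6.29) were lower there than in both other PDAC cultures, while the other 7 were not. It had the highest epithelial marker mean of the PDAC cultures, 9.22 against 6.58 and 7.49 in PDAC replicates 1 and 2, while normal ductal cultures had 11.40 and 11.15. It also had the highest mean of 6 mesothelial markers, 9.20, where PDAC replicates 1 and 2 had 5.36 and 5.81 and the normal ductal arrays 6.56 and 7.19. Upk3b stood at 10.41 there and between 5.55 and 5.72 on the other arrays, and Gpm6a at 9.32, against at most 4.17. Upk1b was also highest there, at 10.77, whereas Msln, Wt1 and Lrrn4, at 11.18, 7.58 and 5.93, were exceeded by a normal ductal array (11.25, 7.82 and 6.98). Without this culture the groups did not overlap for 4 of the 9 genes (Cnn1, Tpm2 and Vim with higher and Cald1 with lower signal in PDAC), and the share among all genes was then 37.1%. The part of mesothelial, epithelial, fibroblast or smooth muscle cells in this array's contractile gene levels was not tested.

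**Figure D4:**
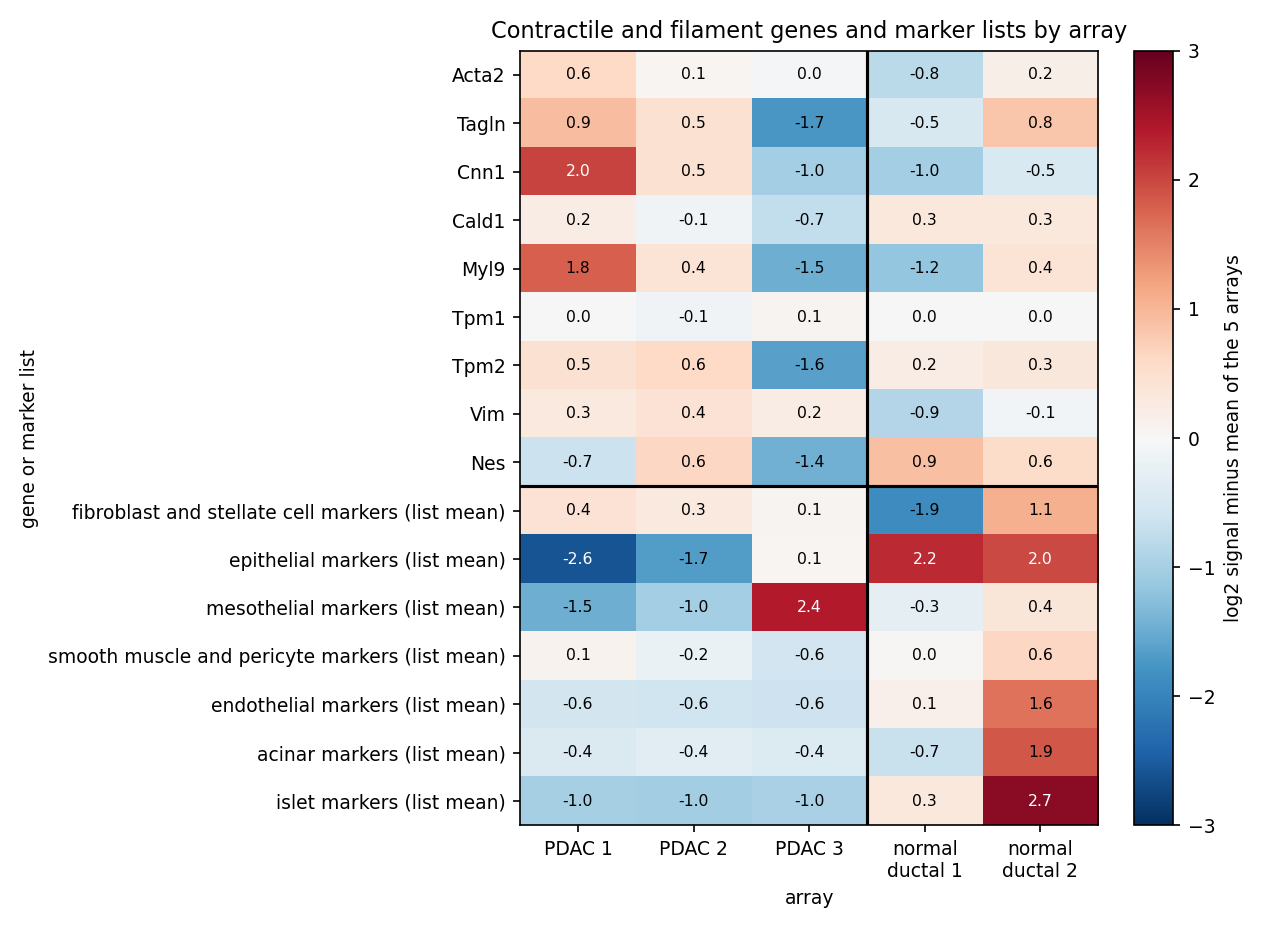
Deviation of each array (x axis) from the mean of the 5 arrays, in log2 units, for the 9 genes and for the list means of marker genes (y axis), red above and blue below the mean. PDAC replicate 3 is low for Tagln, Myl9, Tpm2 and Nes and high for mesothelial markers, and normal ductal replicate 1 is 1.9 below the mean for fibroblast and stellate cell markers.

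Genes of mature smooth muscle were measured beside the 9 genes. Myh11, the smooth muscle myosin heavy chain, stood at 5.67, 5.56 and 5.57 in PDAC and at 5.72 and 6.54 in normal ductal cultures. Myocardin, the smooth muscle cofactor of SRF encoded by Myocd, lay between 4.94 and 5.30 on all 5 arrays. Desmin (Des), the filament protein of muscle, had 5.02, 5.47 and 5.28 in PDAC cultures, against 6.17 and 8.40 in normal ductal cultures. Without normal ductal replicate 1 the log2 differences were -3.15 for Des and -0.94 for Myh11, a comparison with a lone normal ductal array. With all arrays neither gene was called by limma. Of 11 measured late smooth muscle genes limma called 0, also at an unadjusted p under 0.05, with a median log2 difference of 0.06. Enteric smooth muscle actin, Actg2, had 9.63, 6.13 and 6.37 in PDAC and 6.69 and 8.81 in normal ductal cultures, with PDAC replicate 1 the highest and PDAC replicate 2 the lowest of the 5 arrays. Acta1, the skeletal muscle actin gene, went the other way from Acta2, at 7.995, 7.951 and 7.466 in PDAC cultures, against 10.77 and 9.61 in normal ductal cultures. Its log2 difference of -2.38 (SE 0.43) was the largest of the actin isoforms and did not pass limma's adjustment over all genes (adjusted p = 0.201). The other isoforms measured had small differences, Actb with -0.05 (SE 0.05) and Actc1 with -0.03 (SE 0.10), both of which turned positive with the arrays at a common median (0.044 and 0.066). The 8 markers of striated muscle lay between 4.07 and 6.47 on all arrays.

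The regulators of the programme showed 0 calls among 5 measured genes of SRF and its cofactors, also at an unadjusted p under 0.05. Srf had 9.75, 9.90 and 8.78 in PDAC cultures, with PDAC replicate 3 the lowest of the 5 arrays, against 9.39 and 9.99 in normal ductal cultures. Its log2 difference was -0.21 (SE 0.45). The actin-sensing cofactors Mrtfa and Mrtfb had differences of 0.03 (SE 0.36) and -0.63 (SE 0.24), and Abra, an activator of this pathway in muscle, 0.31 (SE 0.14). The signal of Abra was low, between 4.26 and 4.85 on the 5 arrays, below all array medians. For Mrtfb all PDAC arrays lay below both normal ductal arrays, at 8.96, 9.30 and 8.59, against 9.52 and 9.64.

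The closest relatives of Tagln, Cnn1, Tpm1 and Tpm2 are expressed in most cell types. Tagln2, Cnn2, Cnn3, Tpm3 and Tpm4 had ranges over the PDAC arrays between 0.05 and 0.54, while those of Tagln, Cnn1 and Tpm2 lay between 2.23 and 3.04 and that of Tpm1 was 0.18. Their log2 differences were -0.44 (SE 0.20) for Tagln2, -0.11 for Cnn2, 0.07 for Cnn3, -0.05 for Tpm3 and -0.0020 for Tpm4, with 0 of 6 called. Tagln3 had 1 value, 5.99, on all arrays. No test compared the relatives with the 9 genes.

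Genes that anchor and tense stress fibres tended to lower signals in PDAC, without a call. Of 18 stress fibre and focal adhesion genes limma called 0, while before adjustment 0 had a higher and 4 a lower signal in PDAC at p under 0.05, against 6.50% and 6.86% of all genes, and the median log2 difference was -0.45 beside 0.01 over all genes. For 9 of the 18 all PDAC arrays lay below both normal ductal arrays, as they did for 12.8% of all genes. Ilk, a kinase-like linker of integrins to actin, had -0.75 (SE 0.09, adjusted p = 0.163), paxillin (Pxn) -0.82 (SE 0.18, 0.243) and Lasp1, a LIM protein of actin filaments, -0.39 (SE 0.07, 0.210). Among 8 myosin II chains and their kinase limma called 0, also at an unadjusted p under 0.05. The smallest p-values there belonged to Myh14 (-0.93, SE 0.44) and to the light chain gene Myl6 (-0.20, SE 0.10).

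**Figure D5:**
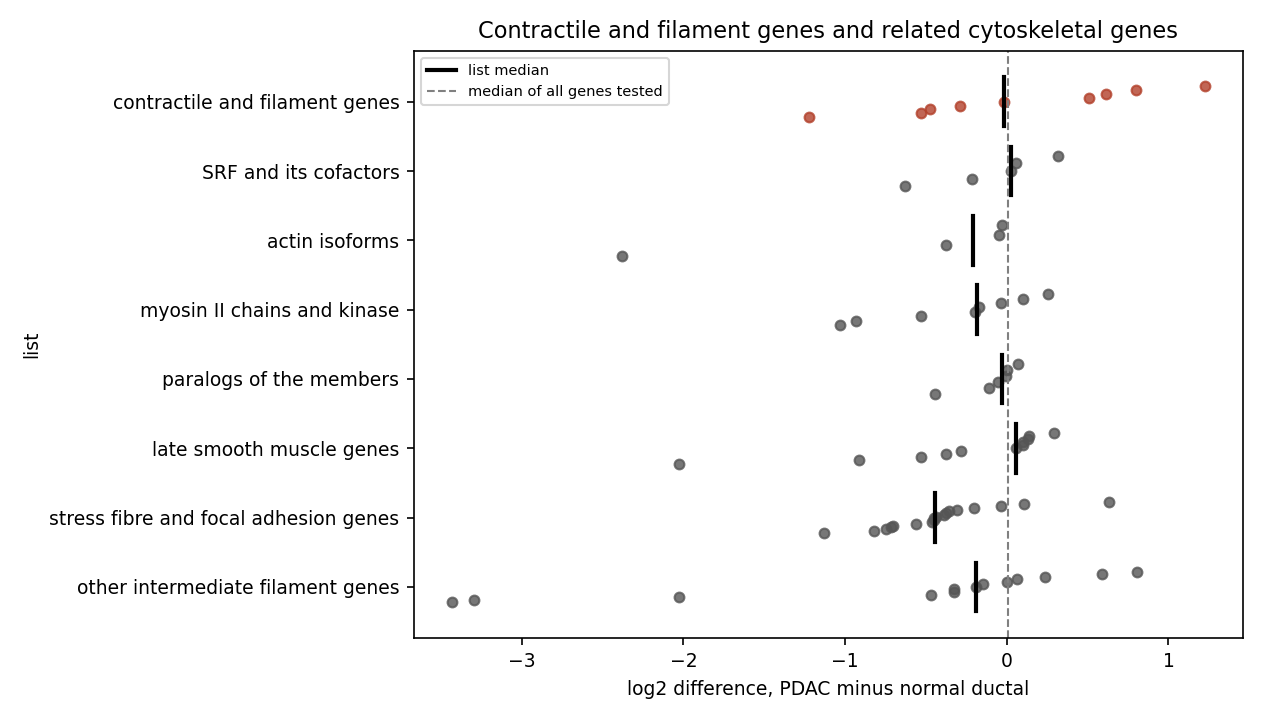
Log2 difference, PDAC minus normal ductal (x axis), of each measured gene in the 9 contractile and filament genes and in related lists (y axis), with a bar at each list median and a dashed line at the median of all genes. The stress fibre and focal adhesion list has a median of -0.45, and the 9 genes spread from -1.22 for Nes to 1.23 for Cnn1.

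Among 13 other intermediate filament genes limma called 0, and before adjustment 0 lay higher and 2 lay lower at p under 0.05, against 6.50% and 6.86% of all genes. The simple keratin gene Krt8 had 7.74, 8.93 and 10.45 in PDAC cultures, against 12.53 and 12.42 in normal ductal cultures, a log2 difference of -3.43 (SE 0.89, limma adjusted p = 0.282). Every PDAC culture thus had less Krt8 and more Vim signal than both normal ductal cultures, but PDAC replicate 3, with the highest Krt8 of the PDAC cultures, had a Vim signal within 0.20 of the others. The nuclear lamin gene Lmnb1 had -0.33 (SE 0.10).

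Profiles most like that of Acta2, among 4130 genes with a range of at least 1 log2 unit over the 5 arrays, were those of Rnf150, Ckap4, Trabd2b, Cstad and Rab8b, with root mean square differences between 0.06 and 0.09. Those most like Vim were Hlx, Spidr, Layn, Ier5l and Gstm5 (0.08 to 0.10). For Nes they were Lpcat2, Spata6, Tiparp, Slc7a11 and Igf2bp3 (0.14 to 0.23). None of the other 8 genes was among the 5 nearest to Acta2, to Vim or to Nes. Tpm1 did not reach the range limit, and the measure sets apart genes of unlike range. This absence therefore does not show that the genes lack common variation.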

How the data were processed

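The authors deposited log2 signals for 35556 probe sets on 5 arrays. Per the submitters' processing notes these came from Transcriptome Analysis Console 1.0.0.234, with mm10 as the genome build. How background, normalization and probe summary were handled is not given in the sources used here, and the log2 scale was taken from the range of values. Gene symbols came from the platform annotation, with Entrez matches to GRCm38.p6. Of them 21789 had 1 symbol, 1621 several and 12146 none here, and for the 999 genes with several probe sets the one with the highest mean was used. Genes were tested with limma 3.58.1 in R 4.3.3 (intensity trend, two-sided, degrees of freedom 3 residual and 0.91 prior), and p-values were adjusted by Benjamini-Hochberg over 19938 genes at a threshold of 0.05. In 20 simulated sets of this comparison the test found 41.5%, 73.2% and 90.7% of genes shifted by 1, 2 and 4 log2 units, with 4.66% of its calls false. The shifted genes were drawn from all genes tested, whose median range over the PDAC arrays was 0.27. That of the 9 genes was 2.07, so these shares do not give the recovery for them. Figures used Python 3.11.15 and matplotlib 3.10.9.

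The genes and lists were chosen with earlier results of these data known. By rule the text names the 9 genes, all measured regulators, actins and relatives, and of other lists up to 3 genes in each direction with the smallest unadjusted p under 0.05, or the 2 with the smallest p. Cell type markers stand as markers. Profiles were compared by the 5 smallest root mean square differences from Acta2, Vim and Nes.

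Results were recomputed with each culture left out, with quantile-normalized or median-aligned arrays, with the mean over a gene's probe sets, with filters that drop the 25% or 50% lowest genes, with weighted arrays, without the intensity trend, with robust variances, and with replicate numbers as blocks. A gene with several symbols or none in the annotation (Actg1 among the actins, for example) was not analysed here. A further list of related genes is not reported here.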

Additional observations from a re-analysis of the deposited data

How the results depend on the processing

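The 9 genes had 0 calls in either direction under all 14 alternatives, with limma's lowest adjusted p, 0.0512, for Vim without normal ductal replicate 2. Acta2, Cnn1, Cald1, Vim and Nes kept their sign throughout. With arrays at a common median, which moved the median log2 difference of all genes to 0.10 (0.04 after quantile normalization), 1 gene did not overlap between groups (Vim, against 46.8% of all genes), and the difference turned to 0.078 for Tpm1, 0.044 for Actb, 0.066 for Actc1, 0.039 for Tpm3 and 0.091 for Tpm4. After quantile normalization 3 genes did not overlap between groups (Cald1, Vim and Nes, against 39% of all genes), and Mrtfa turned to -0.0067. Array weights turned Tpm4 to 0.050. Over all genes the counts called higher and lower were 10 and 32 after quantile normalization, 23 and 57 with a common median and 15 and 27 without the lowest 50% of genes, against 1 and 10 as deposited, and array weights left 3 calls. The replicate block, which leaves 0 calls over all genes, turned Tagln to 0.52, Tpm2 to 0.25, Srf to 0.14, Actc1 to 0.032, Actg2 to 0.13 and Tpm4 to 0.15. PDAC replicate 3 alone bears its number, so the block absorbs that array. The block's differences therefore equal those without PDAC replicate 3 and are no separate check of them. Deviations from the group means correlated at -0.18 for number 1 and -0.04 for number 2. The deviations of the 2 normal ductal arrays mirror each other, so these values cannot show whether replicate numbers pair the cultures.

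With 1 culture left out, the number of the 9 genes without overlap ran from 2 to 5. It was 2 without PDAC replicate 1, 3 without PDAC replicate 2 and 4 without PDAC replicate 3, against 32.4%, 32.5% and 37.1% of all genes. It was 2 without normal ductal replicate 1 (Cald1 and Vim, against 54.9%). Without normal ductal replicate 2 it was 5 (Acta2, Cnn1, Cald1, Vim and Nes, against 52.7%). Calls among the related genes were 0 with any 1 of the PDAC cultures left out. Their number moved without a normal ductal replicate, but such fits assume that the lone array left varies like the PDAC arrays. Without normal ductal replicate 1 the log2 differences were -3.15 for Des and -0.94 for Myh11. Differences that changed sign ran from -0.94 to 0.52 for Tagln, -0.18 to 1.46 for Myl9, -0.057 to 0.034 for Tpm1, -0.87 to 0.25 for Tpm2, -0.51 to 0.14 for Srf, -0.40 to 0.45 for Mrtfa, -0.053 to 0.17 for Myocd, -0.10 to 0.049 for Actc1, -1.50 to 0.68 for Actg2, -0.024 to 0.16 for Cnn3, -0.16 to 0.0062 for Tpm3 and -0.10 to 0.15 for Tpm4. Where not stated, the cause was not tested. Few arrays, and unknown probe-level signal over background, limit what small differences can show.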
